A study of Mus musculus with 2 samples.

Results

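Imprinted genes were followed in mouse embryonic stem cells grown for 72 hours in 2 media. The genes came from a list of 37 imprinted gene symbols. Of these, 36 were found by symbol in the deposited gene table of 32285 genes, and Nespas was not among its symbols. The cells were of the R1 line, a male embryonic stem cell line. Both cultures used N2B27 medium. LB cells grew on gelatin with BMP4 and LIF, a cytokine that keeps stem cells renewing. LBPXRS cells received LIF, BMP4, PD0325901 (a MEK inhibitor), Xav939 (a tankyrase inhibitor), Resorcyclic lactone and SB431542 (an inhibitor of the NODAL and activin receptors) on fibronectin. Each condition was 1 droplet single-cell library, so medium, substrate and culture cannot be told apart and no test between conditions was possible.

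Imprinted genes are transcribed mainly from 1 parental chromosome. The choice is set by DNA methylation that was laid down in the egg or sperm and is kept through the wave of demethylation in the early embryo by factors such as ZFP57 and TRIM28. Many lie in clusters governed by an imprinting control region, and among them are genes of growth factors, growth inhibitors and long noncoding RNAs that act in the placenta and embryo. Embryonic stem cells carry the imprints of the blastocyst, but these can be gained or lost in culture. UMI counts (unique molecular identifiers, 1 per captured RNA molecule) do not tell the parental alleles apart, so every value here is the summed level of both.

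LB gave 1783 kept cells with 45490517 UMIs and LBPXRS 2705 kept cells with 51832444 UMIs, at medians of 25418 and 19058 UMIs per cell. The libraries shared 8 kept cell barcodes. The LBPXRS library stood apart in its chromosomes: the 4 Y-linked genes Ddx3y, Eif2s3y, Kdm5d and Uty had 2872 UMIs in LB and 1 in LBPXRS. Genes of chromosomes 8 and 11 had a median log2 ratio of LBPXRS over LB of -0.61 and -0.63, against -0.17 over all 7661 genes tested. Grb10, Commd1 and Zrsr1 lie on chromosome 11, so that shift is named beside their values. Pluripotency genes were present in both libraries: Pou5f1 stood at 719 CPM (counts per 1000000 UMIs) in LB and 990 in LBPXRS, and Nanog at 75.2 and 177.

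H19 hosts a microRNA, miR-675, in its own transcript, and the mature arms are shown because H19 had the lowest ratio of LBPXRS over LB among the listed genes. The mature microRNAs were not measured. The RefSeq sequences (GRCm38.p6, chr7, minus strand, 5′ to 3′) are given with the seed, bases 2 to 8, in capitals.
mmu-miR-675-5p: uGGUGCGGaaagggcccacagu
mmu-miR-675-3p: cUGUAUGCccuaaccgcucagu
The seeds of the arms differ. RefSeq places 14 microRNA hairpins on the strand of Mirg within that gene and 3 within Rian. Meg3, Mest, Igf2, Usp29 and Rtl1 hold 1 each.

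Promoters were read because imprinted genes share a control by methylated DNA, and ZFP57 binds the letters TGCCGC when their CpG is methylated. RefSeq promoters (GRCm38.p6, 250 bases before to 50 after a start site) were matched for 30 of the 37 genes in 47 windows. H19, Peg10, Sgce, Cdkn1c, Rtl1, Impact and Nespas were not matched. TGCCGC, searched on both strands, was in 12 of the 47 windows (25.5%), against 11.6% of all 32851 windows of that length. It was in a window of 11 of the 30 genes (36.7%), against 13.1% of all 27025 genes. The members had 47 windows for 30 genes, and all genes 32851 for 27025, which favours a match per gene among the members. The 11 were Commd1, Grb10, Igf2, Mcts2, Meg3, Mest, Nnat, Plagl1, Snrpn, Zdbf2 and Zim1. The 12 windows count the same Mest matches in 2 nearly identical windows, which begin at chr6:30737800 and 30737803. The windows held a median of 13 CpGs, against 7 over all windows, and a motif that contains a CpG is met more often where CpGs are dense. A match is a description and not a binding site. The 250 bases before the start site are shown for Mest and Nnat, which were at least 4-fold lower in LBPXRS, for Meg3, and for Grb10, which was higher there. They lie at chr6:30737800-30738049, chr2:157559828-157560077, chr12:109540746-109540995 and chr11:12037421-12037670 (Grb10 on the minus strand). Each reads 5′ to 3′ on the strand of the gene, with TGCCGC or its reverse complement GCGGCA in capitals.
Mest: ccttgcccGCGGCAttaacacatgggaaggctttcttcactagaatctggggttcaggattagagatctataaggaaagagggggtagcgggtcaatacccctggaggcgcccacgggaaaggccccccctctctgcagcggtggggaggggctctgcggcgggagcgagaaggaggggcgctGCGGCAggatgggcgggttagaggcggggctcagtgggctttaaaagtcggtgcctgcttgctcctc
Nnat: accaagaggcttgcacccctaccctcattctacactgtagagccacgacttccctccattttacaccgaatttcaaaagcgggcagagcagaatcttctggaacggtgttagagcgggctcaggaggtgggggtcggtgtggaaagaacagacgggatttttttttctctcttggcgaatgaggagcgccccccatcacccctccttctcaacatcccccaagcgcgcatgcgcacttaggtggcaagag
Meg3: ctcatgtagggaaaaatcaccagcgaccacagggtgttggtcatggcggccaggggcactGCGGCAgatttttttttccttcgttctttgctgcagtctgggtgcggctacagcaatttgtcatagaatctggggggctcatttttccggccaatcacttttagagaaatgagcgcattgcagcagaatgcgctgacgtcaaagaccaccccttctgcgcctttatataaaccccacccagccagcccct
Grb10: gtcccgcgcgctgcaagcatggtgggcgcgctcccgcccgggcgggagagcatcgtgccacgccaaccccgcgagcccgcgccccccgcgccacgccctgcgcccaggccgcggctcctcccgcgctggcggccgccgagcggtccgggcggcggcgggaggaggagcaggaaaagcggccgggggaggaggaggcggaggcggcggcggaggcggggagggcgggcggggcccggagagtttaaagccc
The Mest stretch held 2 matches and the Meg3 stretch 1. The stretches of Nnat and Grb10 held 0, and the matches of these genes lay after the start site.

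Most imprinted genes were lower in LBPXRS than in LB. Of the 36, 26 had at least 10 CPM in either library, which is the floor for a call, and 24 of these (92.3%) had a log2 ratio below 0, against 60.4% of all genes tested. At least 4-fold lower were 8: H19, Igf2, Dlk1, Peg10, Sgce, Mest, Ndn and Nnat. The share of all genes past this rule was 2.88%. Of these 8, 7 reached the floor in LB alone, so that the floor favours this direction for them, and Mest reached it in both libraries. Of the 14 imprinted genes at the floor in both libraries, 14 were below 0 (60.7% of all such genes), with a median of -1.17 (-0.15 over all such genes). None of the 26 was at least 4-fold higher, where the share of all genes was 2.04%. At least 2-fold lower were 18 (10.4% of all genes) and 1, Grb10, was at least 2-fold higher (7.98% of all genes). The 26 had a median log2 ratio of -1.40, against -0.17 over all genes tested. Nearest to the 4-fold line were Ndn at -2.21 inside it, and Grb10 at 1.99, Peg3 at -1.85 and Meg3 at -1.83 outside it. Calls are by size alone, since 1 library a condition gives no spread between cultures, and the intervals below cover counting error only. A level summed over a library does not tell fewer cells of a kind from less RNA per cell.

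**Figure D1:**
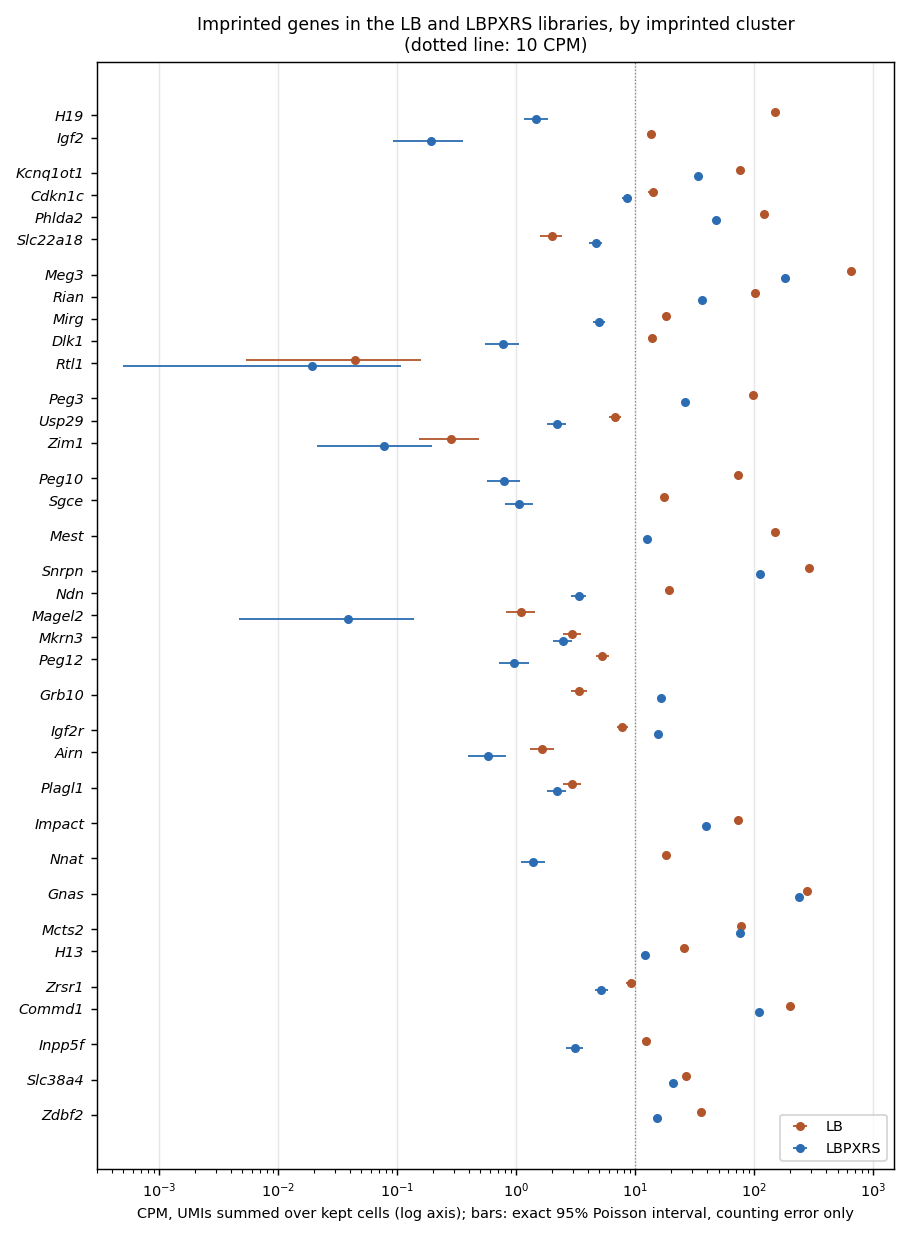
Level of each imprinted gene in CPM on a log axis in LB (brown) and LBPXRS (blue), grouped by imprinted cluster, with exact 95% Poisson intervals. H19, Igf2, Peg10, Sgce, Mest and Nnat are far apart between the libraries, Gnas and Mcts2 nearly coincide, and Grb10 and Igf2r are higher in LBPXRS.

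The LB library held cells of several kinds, so levels were also taken in sets of LB cells with at least 2 UMIs of 1 marker. Klf4, a naive pluripotency factor, marked 385 cells. Fgf5, a marker of formative and primed cells, marked 53, and T, the primitive streak factor brachyury, 389. Mesp1, a factor of nascent mesoderm, marked 160, Hand1, a factor of later and extraembryonic mesoderm, 287, and Gata3, a trophoblast factor, 43. The sets overlap: 94 of the 160 Mesp1-positive cells and 28 of the 43 Gata3-positive cells were also Hand1-positive, as were 15 of the 385 Klf4-positive cells. T-positive were 24 of the 53 Fgf5-positive cells and 88 of the 160 Mesp1-positive ones. In LBPXRS, 1986 cells were Klf4-positive and 54 Gata3-positive. None of its 2705 cells was positive for Fgf5, T, Mesp1 or Hand1, which allows a share of up to 0.111% for each.

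The sets were checked with marker lists and keep the names of their genes. In Klf4-positive cells the 7 naive genes summed to 1826 CPM, against 957 in all of LB, and 5 of them were at least 2-fold higher than in the other LB cells. In Fgf5-positive cells the formative list summed to 920 CPM (557 in LB), with 2 of 6 genes at least 2-fold higher, and the primitive streak list to 342 CPM (155 in LB), with 2 of 4 higher. The streak list summed to 463 CPM in T-positive cells, with 3 of 4 higher. In Mesp1-positive cells it summed to 609 CPM, with 4 of 4 higher, and the mesoderm list, which holds Mesp1 itself, to 766 CPM, with 6 of 9 higher. Other lists moved there too. The primitive endoderm list summed to 49.0 CPM (12.6 in LB), with 3 of 7 genes higher, and the trophoblast list to 499 CPM (447 in LB), with 3 of 9 higher. In Hand1-positive cells the mesoderm list summed to 586 CPM (225 in LB), with 5 of 9 genes at least 2-fold higher. The trophoblast list summed to 1708 CPM there (447 in LB), with 5 of 9 higher, led by the keratins Krt8 and Krt18, while the trophoblast factor Elf5 was at 0. In Gata3-positive cells the trophoblast list, which holds Gata3 itself, summed to 2511 CPM, with 5 of 9 genes at least 2-fold higher. Most of that sum was Krt8 (1166 CPM) and Krt18 (1090 CPM), while Elf5 was at 0 and Eomes at 9.21 CPM (12.7 in LB). The mesoderm list summed to 559 CPM there, with 4 of 9 genes at least 2-fold higher. The part of mesoderm and trophoblast genes in the imprinted levels of these sets was not tested.

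Imprinted genes stood at opposite ends in Klf4-positive and Hand1-positive LB cells. In Klf4-positive cells 13 of 24 genes tested were at least 2-fold lower than in the other LB cells (5.99% of all genes) and 0 were higher (2.54%). In Hand1-positive cells 15 of 27 were at least 2-fold higher (7.83%) and 0 lower (5.09%). Of the 13 low in the first set, 13 are among the 15 high in the second: H19, Igf2, Dlk1, Peg3, Peg10, Sgce, Mest, Ndn, Cdkn1c, Phlda2, Nnat, Gnas and Slc38a4. Each set is part of the cells the other is compared with. A gene can reach the floor of 10 CPM through the cells in which it is high, which favours the direction of its call: this held for 6 of the 13 (Igf2, Dlk1, Sgce, Ndn, Cdkn1c and Nnat) and for 4 of the 15 (Igf2, Dlk1, Usp29 and Peg12). Among genes at the floor on both sides, 7 of 17 imprinted genes were lower in Klf4-positive cells (2.36% of all such genes) and 11 of 22 higher in Hand1-positive cells (4.29%). The median log2 ratio was -1.07 in Klf4-positive cells (-0.16 over all genes) and 1.11 in Hand1-positive cells (0.19 over all genes).

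The other sets lay between. In Gata3-positive cells 13 of 27 genes were at least 2-fold higher (6.86% of all genes) and 0 lower (4.78%), and in Mesp1-positive cells 9 were higher (5.17%) and 1, Snrpn, lower (5.71%). Of these, 2 of the 13 and 1 of the 9 reached the floor of 10 CPM in the set alone, which favours this direction. Among genes at the floor on both sides, 11 of 24 were higher in Gata3-positive cells (4.25% of all such genes) and 8 of 23 in Mesp1-positive cells (2.80%). In T-positive cells Peg3, Peg12 and Cdkn1c were at least 2-fold higher (3.99%) and H19, Igf2 and Mest lower (3.87%). Under other settings the log2 ratio came down to 0.85 for Peg3 and up to -0.66 for H19 and -0.94 for Mest, which are short of 2-fold. In Fgf5-positive cells Mirg and Snrpn were higher (2.31%) and H19, Igf2, Dlk1, Peg10 and Slc38a4 lower (3.57%). Of the lower ones, Igf2, Dlk1 and Slc38a4 reached the floor of 10 CPM in the other cells alone, which favours this direction. Among genes at the floor on both sides, 2 of 20 were higher (1.06% of all such genes) and 2 lower (1.42%). The medians were 0.79 in Gata3-positive, 0.37 in Mesp1-positive, 0.17 in T-positive and -0.07 in Fgf5-positive cells, against 0.17, 0.10, 0.11 and 0.12 over all genes.

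**Figure D2:**
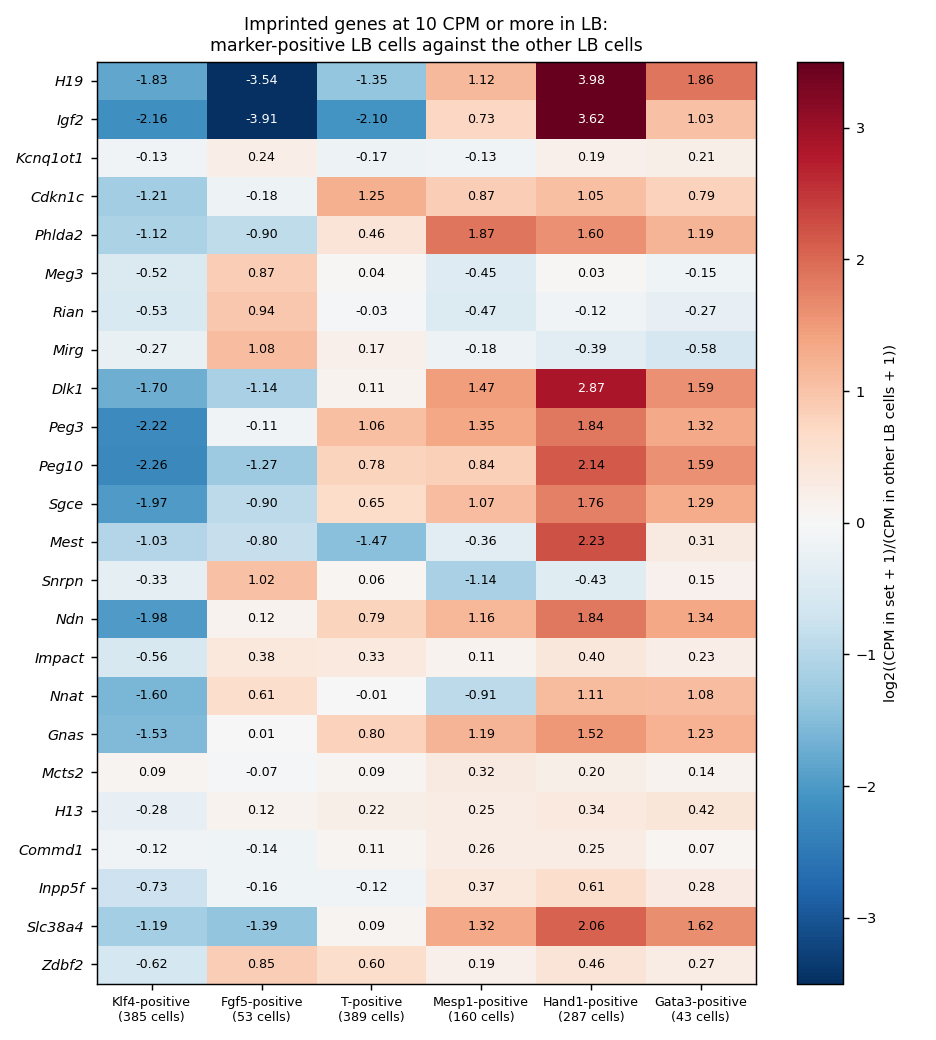
Log2 ratio of CPM in each marker-positive set over the other LB cells, with a pseudocount of 1, for the imprinted genes at 10 CPM or more in LB (red higher, blue lower; the colours saturate before the largest values). The Klf4 column is blue for most genes and the Hand1 column red, while Kcnq1ot1, Mcts2, H13 and Commd1 stay near 0 in all 6 columns.

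H19 and Igf2 varied widely, between the libraries and across the LB sets. H19, a maternally expressed noncoding RNA (chr7:142575529-142578143, minus strand), had 149 CPM in LB (6765 UMIs) and 1.47 in LBPXRS (76 UMIs), 101-fold apart (interval 80.9 to 129). Its neighbour Igf2, the paternally expressed growth factor gene (chr7:142650766-142666816, minus strand), had 13.5 CPM (615 UMIs) and 0.193 (10 UMIs), 70.1-fold apart (37.8 to 147). Within LB, H19 was at 668 CPM in Hand1-positive, 500 in Gata3-positive, 297 in Mesp1-positive, 66.5 in T-positive, 50.03 in Klf4-positive and 12.3 in Fgf5-positive cells. No 2 neighbours in that order had overlapping counting intervals, but these leave out spread between cells. In cells brought to equal depth, the variance of H19 UMIs divided by their mean was 13.7 in Klf4-positive and 6.53 in Hand1-positive cells. It was 6.52 in Gata3-positive, 5.81 in Mesp1-positive, 4.99 in T-positive and 1.33 in Fgf5-positive cells. Most of these lie far above what counting alone gives. The sets also share cells, so steps such as T-positive over Klf4-positive and Hand1-positive over Gata3-positive are not settled. Igf2 followed the same order, at 59.8, 27.6, 21.9, 3.06 and 3.01 CPM, with 0 UMIs in Fgf5-positive cells, which allows up to 1.94 CPM. Its Gata3-positive and Mesp1-positive levels had overlapping counting intervals, as did its T-positive and Klf4-positive levels. These genes share enhancers and are expressed from opposite parental chromosomes. Both were far lower in LBPXRS.

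The H19 level of Klf4-positive LB cells rested on few cells. After each cell was thinned to 5000 UMIs, 18 of 385 Klf4-positive cells (4.68%) had an H19 UMI. The log2 ratio of these cells over the other LB cells was -1.83, and -3.28 for cells positive for Klf4 and no other marker. Free RNA in the droplets can also add UMIs. Of the streak, mesoderm and trophoblast genes read as checks at 10 CPM or more in LB, Mixl1, a primitive streak factor, stood lowest in Klf4-positive cells, at 3.53% of its LB level (7 UMIs, interval up to 7.27%). Mixl1 was chosen after its values were seen, and the next lowest were Msx1 at 14.9% and Fgf8 at 15.4%. If free RNA had the makeup of all LB cells, a bound from Mixl1 came to 10.8 of the 50.03 CPM of H19. It came to 5.33 of 18.2 for Peg10, 7.10 of 25.2 for Peg3 and 0.983 of 3.01 for Igf2. For Mest it came to 10.9 of 83.2, and for Meg3 to 47.1 of 488. The bound rests on this 1 gene, and the part of free RNA in these levels was not tested.

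In the Dlk1 and Meg3 cluster of chromosome 12 the maternally expressed noncoding RNAs were lower in LBPXRS by similar ratios, and the paternally expressed gene Dlk1 by more. Meg3 (chr12:109541001-109571726, plus strand) had 648 CPM in LB (29486 UMIs) and 181 in LBPXRS (9398 UMIs), a log2 ratio of -1.83. Rian, a host of small nucleolar RNAs and microRNAs (chr12:109603940-109661716), had 101 and 36.3 CPM (-1.46). Mirg, a microRNA host (chr12:109729764-109749460), had 18.0 and 4.96 CPM (-1.67). In fold, these were 3.57 (3.49 to 3.66), 2.79 (2.65 to 2.95) and 3.62 (3.14 to 4.18) lower in LBPXRS, so Meg3 and Mirg did not differ beyond counting error and Rian moved less. Dlk1, a membrane protein of the Notch ligand family (chr12:109452823-109463336), had 13.8 CPM in LB and 0.772 in LBPXRS (40 UMIs; -3.06). Rtl1, a retrotransposon-derived gene read from the opposite strand, had 2 UMIs in LB and 1 in LBPXRS.

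Within LB these noncoding RNAs were highest in the Fgf5-positive set, where the summed level of H19 was lowest. Meg3 stood at 1156.5 CPM in Fgf5-positive, 664 in T-positive, 660.5 in Hand1-positive, 586 in Gata3-positive, 488 in Klf4-positive and 485 in Mesp1-positive cells. Rian followed the same order, at 190, 99.8, 94.4, 84.2, 75.6 and 74.7 CPM. Mirg was at 37.5 CPM in Fgf5-positive, 19.8 in T-positive, 15.9 in Mesp1-positive, 15.4 in Klf4-positive, 14.1 in Hand1-positive and 11.8 in Gata3-positive cells. Only in the Fgf5-positive set, which has 53 cells, did a set stand clearly above the rest for all 3. Thinning before the sets were drawn left 4 Fgf5-positive cells, too few to decide whether this held. The log2 ratio over the other LB cells then went from 0.87 to -0.26 for Meg3 and from 1.08 to -4.18 for Mirg. With the same 53 cells thinned, Meg3 had a mean of 5.64 UMIs, against 2.33 (Mesp1-positive) to 3.27 (T-positive) in the other sets. Mirg was found in 17.0% of these 53 cells, against 7.27% (Klf4-positive) to 9.43% (Mesp1-positive), with overlapping intervals. Dlk1 went the other way, from 50.8 CPM in Hand1-positive, 40.8 in Gata3-positive and 34.8 in Mesp1-positive cells to 14.7 in T-positive, 5.82 in Fgf5-positive and 4.47 in Klf4-positive cells.

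The Kcnq1ot1 cluster of chromosome 7 held a noncoding RNA that varied less across the LB sets than the protein genes did. Kcnq1ot1, the paternally expressed RNA that silences its neighbours in cis (chr7:143203458-143296549, minus strand), had 76.0 CPM in LB (3459 UMIs) and 33.6 in LBPXRS (1742 UMIs; -1.15). It lies against Kcnq1 over 93092 bases on the other strand, and the strand setting of the counting is not given in the sources used here. Kcnq1 itself had 0 UMIs in LB and 6 in LBPXRS. In the LB sets Kcnq1ot1 spanned only 69.1 CPM (T-positive) to 89.3 (Fgf5-positive), with 71.0 in Klf4-positive, 69.8 in Mesp1-positive, 84.7 in Hand1-positive and 87.5 in Gata3-positive cells.

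Phlda2, an inhibitor of placental growth (chr7:143501545-143503150), had 121 CPM in LB (5483 UMIs) and 47.4 in LBPXRS (2456 UMIs; -1.33). It was highest in Mesp1-positive cells at 365 CPM, followed by Hand1-positive (272) and Gata3-positive cells (266), which did not differ beyond counting error. The first place did not hold in cells positive for 1 marker only. There the log2 ratio over the other LB cells was 0.74 for Mesp1, in only 19 cells, and 1.44 for Hand1, in 131 cells. With so few Mesp1 cells the order is not settled. T-positive cells had 154 CPM, Fgf5-positive 65.3 and Klf4-positive 63.4. The direction in T-positive cells changed as well: the log2 ratio over the other LB cells was 0.46, but -1.22 when cells were thinned before the sets were drawn and -0.73 in cells positive for T alone. Cdkn1c, the CDK inhibitor p57 (chr7:143458339-143461050), had 14.0 and 8.51 CPM in LB and LBPXRS (-0.65). It stood at 26.4 CPM in T-positive, 24.6 in Mesp1-positive, 25.1 in Hand1-positive and 24.3 in Gata3-positive cells, against 12.3 in Fgf5-positive and 6.47 in Klf4-positive cells. Slc22a18, a transporter gene, had 90 LB and 242 LBPXRS UMIs, or 1.98 and 4.67 CPM. Of the 4 listed genes of this cluster it was the 1 with the higher level in LBPXRS, below the floor for a call.

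Peg3, Peg10 and Sgce separated Klf4-positive LB cells from the T-positive, Mesp1-positive and Hand1-positive ones. Peg3, a zinc finger gene (chr7:6703892-6730431, minus strand), had 97.6 CPM in LB (4438 UMIs) and 26.4 in LBPXRS (1366 UMIs; -1.85). Across the LB sets it was at 25.2 CPM in Klf4-positive, 90.6 in Fgf5-positive, 166 in T-positive, 222 in Mesp1-positive, 244 in Hand1-positive and 234 in Gata3-positive cells, the last 3 with overlapping counting intervals. Usp29, a ubiquitin protease gene, starts head to head with Peg3, and their promoter windows share 263 bases (chr7:6730370-6730632). Its 306 LB and 113 LBPXRS UMIs came to 6.73 and 2.18 CPM, and from 2.19 CPM in Klf4-positive to 15.6 in Mesp1-positive cells. Zim1, a maternally expressed zinc finger gene beside them, had 13 and 4 UMIs.

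Peg10, a retrotransposon-derived gene needed for the placenta (chr6:4747306-4760517, plus strand), and Sgce, the epsilon-sarcoglycan gene (chr6:4674350-4747207, minus strand), start 99 bases apart on opposite strands. Peg10 had 73.3 CPM in LB (3335 UMIs) and 0.791 in LBPXRS (41 UMIs), 92.7-fold apart (68.2 to 129). Sgce had 17.5 CPM (796 UMIs) and 1.06 (55 UMIs), 16.5-fold apart (12.5 to 22.1). Both were near 1 CPM in LBPXRS, and the fold of Peg10 was larger beyond counting error. Peg10 was at 18.2 CPM in Klf4-positive, 30.4 in Fgf5-positive, 109 in T-positive, 124 in Mesp1-positive, 206 in Hand1-positive and 208 in Gata3-positive cells. Sgce had the same order except at the top, from 4.74 through 9.06, 24.9 and 34.8 to 43.5 in Hand1-positive and 42.1 in Gata3-positive cells.

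Mest, a paternally expressed gene of the hydrolase fold (chr6:30723547-30748465, plus strand), had 149 CPM in LB (6793 UMIs) and 12.5 in LBPXRS (647 UMIs), 12.0-fold apart (11.03 to 12.99). It was at 431 CPM in Hand1-positive cells, 184 in Gata3-positive, 118 in Mesp1-positive, 86.7 in Fgf5-positive, 83.2 in Klf4-positive and 62.0 in T-positive cells. Mest was therefore high in Hand1-positive cells but, unlike Peg3, at least 2-fold lower in T-positive cells than in the other LB cells (-1.47).

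In the Snrpn region of chromosome 7, Snrpn and Ndn did not follow each other. Snrpn, which encodes a splicing protein (chr7:59982495-60140219, minus strand), had 287 CPM in LB (13067 UMIs) and 112 in LBPXRS (5819 UMIs; -1.35). It was highest in Fgf5-positive cells at 565 CPM and lowest in Mesp1-positive cells at 136, with 317 in Gata3-positive, 297 in T-positive, 240 in Klf4-positive and 224 in Hand1-positive cells. Ndn, the necdin gene (chr7:62346569-62350262, plus strand), had 19.04 and 3.34 CPM in LB and LBPXRS (-2.21). It was lowest in Klf4-positive cells at 5.19 CPM, with 20.7 in Fgf5-positive, 29.0 in T-positive, 39.7 in Mesp1-positive, 48.8 in Hand1-positive and 47.3 in Gata3-positive cells. Of the smaller genes of the region, Magel2 had 50 UMIs in LB and 2 in LBPXRS, Peg12 241 and 50, and Mkrn3 134 and 127. Mkrn3 thus differed little between the libraries, while Magel2 and Peg12 were lower in LBPXRS.

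Grb10 and Igf2r, which restrain insulin and IGF signalling, were the genes tested with a log2 ratio above 0. Grb10, an adaptor protein gene (chr11:11930508-12038683, minus strand), had 3.39 CPM in LB (154 UMIs) and 16.4 in LBPXRS (850 UMIs), 4.84-fold apart (4.08 to 5.79). Its log2 ratio with the pseudocount of 1 is 1.99, just under the 4-fold line, and it is past that line with a pseudocount of 0.1 or with TMM scaling. The genes of its chromosome had a median of -0.63. Within LB it was low in every set, from 2.19 CPM in Klf4-positive to 5.39 in Hand1-positive cells, so none of the sets reached the LBPXRS level. Igf2r, the receptor that clears IGF2 (chr17:12682406-12769664, minus strand), had 7.76 and 15.6 CPM (0.92). In the LB sets it stood at 7.29 CPM in Klf4-positive, 3.88 in Fgf5-positive, 6.43 in T-positive, 6.30 in Mesp1-positive, 7.70 in Hand1-positive and 4.603 in Gata3-positive cells. Airn, the antisense RNA that overlaps Igf2r by 28354 bases and silences it in cis, had 75 UMIs in LB and 30 in LBPXRS. Of its 75 LB UMIs, 50 came from Hand1-positive cells.

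The members without a partner fell into groups that varied in LB and groups that did not. Gnas, the gene of the stimulatory G protein alpha subunit (chr2:174284320-174346744, plus strand), had nearly equal levels in the libraries, 277 CPM in LB (12616 UMIs) and 236 in LBPXRS (12226 UMIs; -0.23). Within LB it was at 113 CPM in Klf4-positive, 279 in Fgf5-positive, 416 in T-positive, 575 in Mesp1-positive, 604 in Hand1-positive and 623 in Gata3-positive cells. LBPXRS cells thus had about the level of the Fgf5-positive set, and more than the Klf4-positive one. Slc38a4, an amino acid transporter gene (chr15:96994820-97055956), was similar: 26.5 and 20.6 CPM in LB and LBPXRS (-0.35). It spanned 12.9 CPM in Klf4-positive, 9.70 in Fgf5-positive, 28.0 in T-positive, 60.2 in Mesp1-positive, 73.4 in Hand1-positive and 78.2 in Gata3-positive cells.

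Nnat, a small membrane protein gene (chr2:157560078-157562522), had 18.2 CPM in LB (826 UMIs) and 1.39 in LBPXRS (72 UMIs; -3.003), and from 6.56 CPM in Klf4-positive to 38.1 in Gata3-positive cells. Zdbf2, a zinc finger gene (chr1:63273265-63314576), had 35.6 and 15.1 CPM (-1.19). It was highest in Fgf5-positive cells at 63.4 CPM, with 49.1 in T-positive, 46.4 in Hand1-positive, 42.7 in Gata3-positive, 40.2 in Mesp1-positive and 25.0 in Klf4-positive cells. Inpp5f, a phosphoinositide phosphatase gene, had 12.4 and 3.09 CPM (-1.71). Impact, an inhibitor of the kinase GCN2 (chr18:12955852-12992950), had 72.2 and 39.5 CPM (-0.85). It was at 52.7 CPM in Klf4-positive, 93.1 in Fgf5-positive, 86.2 in T-positive, 77.5 in Mesp1-positive, 90.3 in Hand1-positive and 84.2 in Gata3-positive cells. Plagl1, a zinc finger gene, had 133 and 114 UMIs.

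Mcts2, H13 and Commd1 stayed within 2-fold across the LB sets. Mcts2 is a retrogene in an intron of H13, on its strand over 912 bases. Mcts2 (chr2:152687035-152687946) had 77.4 CPM in LB and 75.7 in LBPXRS (-0.03, and 0.12 with TMM scaling). It was at 81.1 CPM in Klf4-positive, 73.7 in Fgf5-positive, 81.3 in T-positive, 94.98 in Mesp1-positive, 87.0 in Hand1-positive and 84.8 in Gata3-positive cells. H13, a signal peptide peptidase gene (chr2:152669461-152708670), had 25.5 and 12.1 CPM (-1.02), with 21.9 in Klf4-positive, 27.8 in Fgf5-positive, 28.8 in T-positive, 30.1 in Mesp1-positive, 31.0 in Hand1-positive and 34.2 in Gata3-positive cells. In Hand1-positive over Klf4-positive cells the fold was 1.42 for H13 (1.18 to 1.70) and 1.07 for Mcts2 (0.969 to 1.19). Host and retrogene thus differed between the libraries, by a fold of 2.11 (1.92 to 2.33) against 1.02 (0.976 to 1.07).

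Commd1, a regulator of copper transport (chr11:22896136-22982382), had 200.4 CPM in LB and 109.5 in LBPXRS (-0.87), where genes of its chromosome had a median of -0.63. It was at 188 CPM in Klf4-positive, 182 in Fgf5-positive, 212 in T-positive, 237 in Mesp1-positive, 232 in Hand1-positive and 210 in Gata3-positive cells. Zrsr1, a splicing-factor retrogene within Commd1 on the other strand, had 418 and 269 UMIs.

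Klf4-positive cells were then compared between the libraries, 385 in LB and 1986 in LBPXRS, so that cells with a common marker stood side by side. Of 19 imprinted genes tested, 3 were at least 4-fold lower in LBPXRS (1.5% of all genes): H19 at 50.03 CPM in LB and 1.02 in LBPXRS, Peg10 at 18.2 and 0.595, and Mest at 83.2 and 12.5. Grb10 was at least 4-fold higher (1.98% of all genes), at 2.19 and 17.7 CPM. Of these 4 genes, Mest reached the floor in both libraries and the others in the higher library alone. At least 2-fold lower were 7 (6.22%) and 2 higher (8.17%), Grb10 and Gnas, which had 113 and 240 CPM. The median log2 ratio was -0.78, against -0.01 over all genes. Igf2, Dlk1, Sgce, Ndn and Nnat, at least 4-fold lower over all cells, were under the floor of 10 CPM in the Klf4-positive cells of both libraries and were not tested. Their counts still gave levels lower in LBPXRS by a fold of 121 for Igf2 (33 and 1 UMIs, 20.3 to 4937), 5.46 for Dlk1 (3.44 to 8.76), 4.66 for Sgce (3.04 to 7.204), 4.65 for Nnat (3.24 to 6.70) and 1.66 for Ndn (1.19 to 2.29). By the bound from Mixl1, free RNA could make up between 20.1% (Nnat) and 32.7% (Igf2) of these 5 LB levels.

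Peg3 had 25.2 CPM in LB and 25.7 in LBPXRS (0.03). By the same bound up to 28.2% of that LB level could be free RNA. The Klf4-positive LB cells also included 15 Hand1-positive and 15 T-positive cells. For LB cells positive for Klf4 and no other marker, the log2 ratio of Peg3 over the other LB cells was -2.79, against -2.22 for all Klf4-positive cells. Like Peg3, Cdkn1c (0.12) and Slc38a4 (0.59) were not lower in LBPXRS at this marker. Meg3 still had 488 and 181 CPM (-1.42), Rian 75.6 and 36.8 (-1.02), Mirg 15.4 and 5.15 (-1.41), and Snrpn 240 and 114 (-1.06). The noncoding RNAs of chromosome 12 and Snrpn were lower in LBPXRS also at this marker, by a smaller ratio than over all cells. The bound from Mixl1, which assumes free RNA of the makeup of all LB cells, came to 9.75% or less of their level in Klf4-positive LB cells, 21.6% for H19 and 29.3% for Peg10. The part of free RNA in these differences was not tested.

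**Figure D3:**
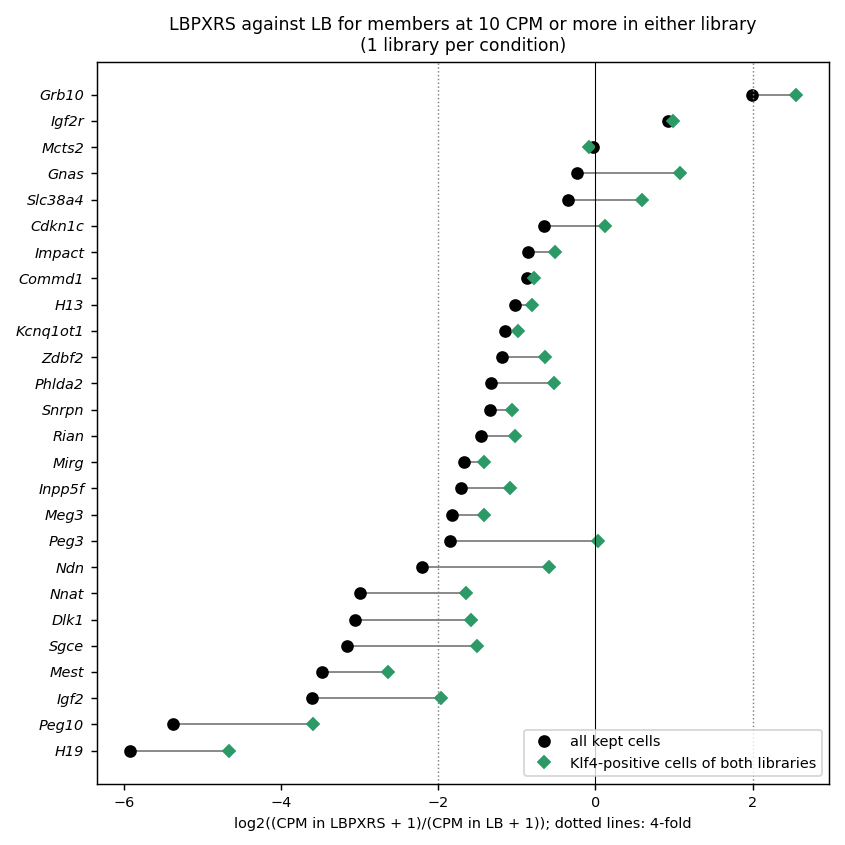
Log2 ratio of LBPXRS over LB for imprinted genes at 10 CPM or more in either library, over all kept cells (black circles) and over the Klf4-positive cells of both libraries (green diamonds); dotted lines mark 4-fold. Most diamonds lie closer to 0 than their circles, and Peg3 moves from -1.85 to 0.03 and Gnas from -0.23 to 1.08. For Grb10 the diamond (2.55) lies beyond the 4-fold line and the circle (1.99) just under it.

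Within LBPXRS, few genes of any kind differed between Klf4-positive and other cells. Of 17 imprinted genes tested in its 1986 Klf4-positive cells, 0 were at least 2-fold higher (0.0432% of all genes) and 0 lower (0.418%), so these counts say nothing particular to imprinted genes. Of 18 tested in its 54 Gata3-positive cells, 2 were higher (1.37% of all genes), H19 and Cdkn1c, and 0 lower (0.618%). Both reached the floor in the Gata3-positive cells alone, and the interval of H19 there extends below it. H19 had 10.5 CPM in them (12 UMIs, interval 5.41 to 18.3) against 1.26 in the other LBPXRS cells, and Cdkn1c 19.2 CPM (22 UMIs) against 8.27. Phlda2 had 74.2 against 46.8 CPM, and Mest 7.85 against 12.6. H19 in these cells stayed far below its 500 CPM in Gata3-positive LB cells.

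Several imprinted genes were unevenly spread over LB cells. Cells were thinned to 5000 UMIs each, which left out 50 LB and 84 LBPXRS cells of lower depth, and the variance of a gene's UMIs over cells was divided by its mean. This ratio is near 1 where only counting varies. H19 had a ratio of 8.85 in LB, against a median of 1.12 over the 100 genes of most similar mean. It had a UMI in 274 of 1733 LB cells (15.8%, exact binomial interval 14.1 to 17.6), where the same UMIs spread evenly would reach 52.1%. The 10% of cells with most held 91.6% of its UMIs. In LBPXRS 12 of 2621 cells had an H19 UMI (0.458%, 0.237 to 0.798). Without thinning the shares were 29.1% and 0.998%.

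Phlda2 had a ratio of 6.15, with up to 41 UMIs in a cell, Meg3 5.57, with up to 65, and Mest 4.99. Igf2 (2.38), Peg3 (2.26), Peg10 (2.26), Cdkn1c (2.22), Gnas (2.17) and Dlk1 (2.12) followed. At the other end, Commd1 (1.04), Mcts2 (1.00), H13 (1.00) and Impact (1.07) were at the level of counting, so some imprinted genes were evenly spread and others were not. In LBPXRS the ratios were 2.33 for H19, found there in few cells, 2.04 for Meg3, 1.25 for Phlda2, 1.18 for Gnas and 1.07 for Mest. Mean UMIs were lower there, as for Mest (0.0626 against 0.732) and Phlda2 (0.227 against 0.626), so the ratios are not directly comparable between libraries. Among the 100 genes of most similar mean in LBPXRS, the share with a lower ratio was 99% for H19, 100% for Meg3 and 98% for Phlda2. It was 66% for Gnas and 91% for Mest. Cdkn1c had a ratio of 2.31 there, which rested on 1 cell with 13 UMIs: without that cell it was 0.998.

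**Figure D4:**
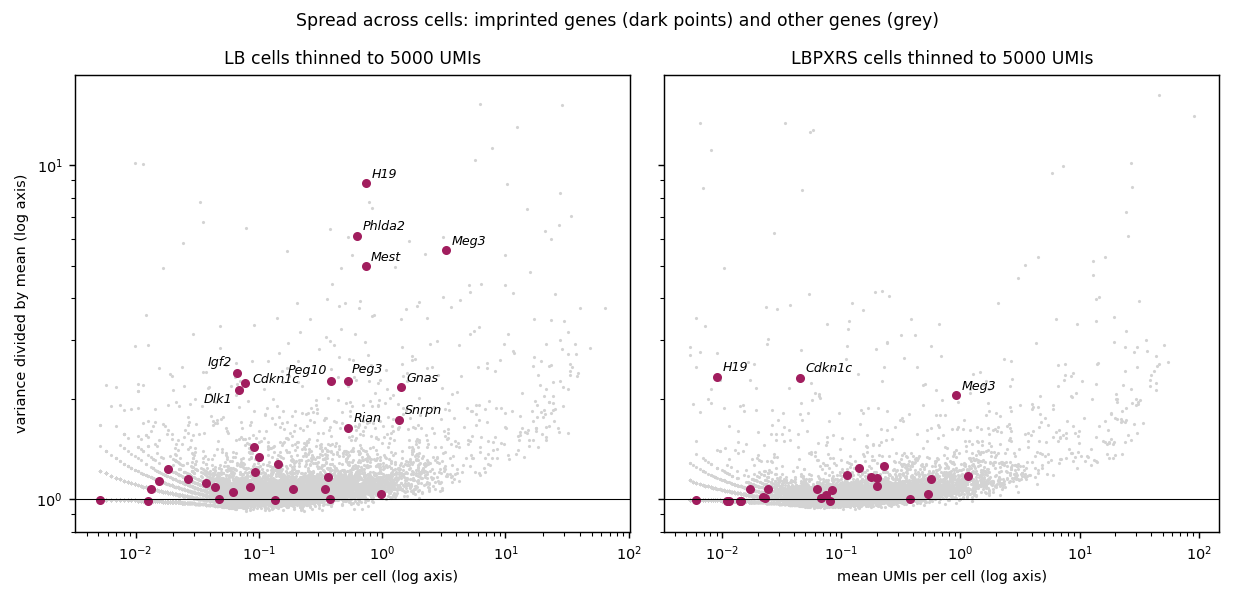
Variance divided by mean of UMIs per cell against mean UMIs per cell, on log axes, after thinning to 5000 UMIs, for imprinted genes (dark points) and all other genes (grey) in each library. H19, Phlda2, Meg3 and Mest lie well above genes of like mean in LB, and fewer imprinted genes do so in LBPXRS.

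Uneven detection remained within the marker-positive sets. Among 286 Hand1-positive cells, 154 had an H19 UMI (53.8%, 47.9 to 59.7), where an even spread would give 95.7%. Of these 286 cells 132 had 0 and 32 had 10 or more. H19 was found in 40.9% of Mesp1-positive, 48.8% of Gata3-positive, 13.1% of T-positive and 4.68% of Klf4-positive cells. Mest was found in 143 of these cells, where an even spread would give 87.1%, and Phlda2 in 40.2% of them against 76.7%. Gnas was found in 93.7% of them against 94.8%, so it was nearly even within that set. Meg3 was found in all 53 Fgf5-positive cells, and in 76.6% to 81.2% of the Klf4-positive, T-positive, Hand1-positive and Gata3-positive cells. It was in 68.6% of Mesp1-positive cells.

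**Figure D5:**
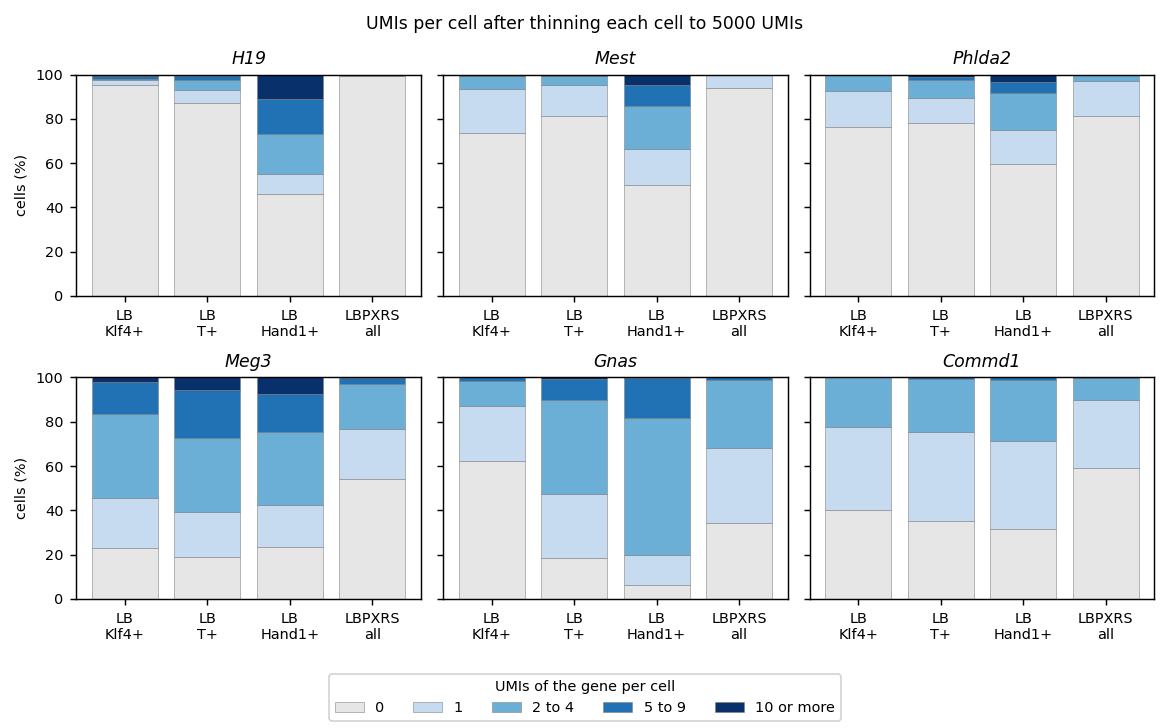
Share of cells (%) by UMIs of a gene per cell after thinning to 5000 UMIs, in 3 marker-positive LB sets and in all LBPXRS cells. H19 splits the Hand1-positive cells into 46.2% with none and 11.2% with 10 or more, while Commd1 has like profiles in the 3 LB sets.

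Genes of a cluster were not always found in the same cells. Over all LB cells Igf2 was detected in 8.76% of cells with an H19 UMI (5.69 to 12.8) and in 2.95% of those without (2.14 to 3.95). Within Hand1-positive cells the order was turned: Igf2 was in 12.3% of 154 cells with H19 (7.59 to 18.6) and in 22.0% of 132 without (15.2 to 30.0). The intervals overlap, so at this depth the pair was not shown to be found together in that set. Peg10 and Sgce went the same way, with Sgce in 14.7% of LB cells with Peg10 against 6.504% without, but in 18.6% against 25.4% of Hand1-positive cells, and so did Peg3 and Usp29. The intervals of these Hand1-positive values overlap as well. Among LB cells that were not Hand1-positive, Sgce was in 12.1% of cells with Peg10 (8.10 to 17.1) and in 4.50% of those without (3.41 to 5.81).

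Meg3 and Rian of chromosome 12 were found together in both libraries. Rian was in 40.5% of LB cells with Meg3 (37.8 to 43.1) and in 15.0% of those without. In Hand1-positive cells it was 39.3% against 14.9%, in Klf4-positive cells 34.8% against 15.7%, and in LBPXRS 22.5% against 11.7%. Mirg was in 9.64% of LB cells with Meg3 (8.12 to 11.3) and in 1.34% of those without (0.435 to 3.09). Phlda2 was in 51.7% of LB cells with Cdkn1c (40.8 to 62.4) and in 26.4% without (24.3 to 28.6), and in Hand1-positive cells in 77.3% against 37.1%, but in LBPXRS in 17.3% against 18.7%. Kcnq1ot1, of the same cluster, did not go with Phlda2: 27.2% of LB cells with Kcnq1ot1 had Phlda2 and 27.9% of those without. Mcts2 and H13 were likewise unrelated, with H13 in 12.5% of LB cells either way. Cells of 1 library share their culture and depth, so these are descriptions of 1 library each.

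Neighbouring genes of the clusters were mostly under the floor for a call. Of 32 listed neighbours 31 were in the gene table and 10 were tested. Adam23, a disintegrin family gene near Zdbf2, was at least 4-fold lower in LBPXRS (2.88% of all genes), at 17.7 CPM in LB and 0.232 in LBPXRS. Ascl2, a trophoblast factor of the Kcnq1ot1 cluster, was at least 2-fold higher (7.98% of all genes), at 3.34 and 12.5 CPM. Each reached the floor in 1 library alone. The median of the 10 was -0.15, against -0.17 over all genes tested. Copg2, which overlaps the Mest region, had 14.3 and 17.0 CPM, and Casd1, beside Sgce, 143 and 40 UMIs.

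Genes that protect, write or erase imprints were also read. Of 20 listed, 19 were tested, with 4 at least 2-fold lower in LBPXRS (10.4% of all genes) and 2 higher (7.98%), the latter near the share of all genes. The de novo methyltransferase Dnmt3b was 116 CPM in LB and 5.48 in LBPXRS, Dnmt3a 26.6 and 6.10, their cofactor Dnmt3l 30.3 and 12.9, and Dppa3, which protects the maternal genome from demethylation, 126 and 38.9. Zfp57, the zinc finger protein that holds imprints, was higher, at 44.7 and 133 CPM, as was the demethylating enzyme Tet2, at 6.66 and 25.2. Trim28, the corepressor that ZFP57 recruits, had 326 and 332 CPM, and the maintenance methyltransferase Dnmt1 48.03 and 51.01. The median of the 19 was 0.03. DNA methylation was not measured, and a link between these genes and the imprinted levels was not tested.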

How the data were processed

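The deposited matrices hold UMI counts per gene and cell barcode, which the authors obtained by running Cell Ranger 4.0.0, per the file headers, against mm10, per the submitters' processing notes. The gene annotation and the strand setting of the counting are not given in the sources used here. Per the labels' protocols, the libraries used 10x 3′ version 2 chemistry and a NovaSeq. Gene positions are from GENCODE M21 (GRCm38) and sequences from RefSeq (GRCm38.p6).

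Barcodes with fewer than 1000 genes or over 10% mitochondrial UMIs were left out (225 of 2008 in LB, 406 of 3111 in LBPXRS). Scrublet in scanpy 1.11.5 marked 12 LB (0.673%) and 14 LBPXRS cells (0.518%), which were kept. UMIs were summed over cells and scaled to CPM. Ratios are log2((CPM + 1)/(CPM + 1)), which understates the change of low genes. A call needs 10 CPM in either group and a 4-fold ratio between libraries or a 2-fold ratio for marker-positive cells, with no test and no p-value. Intervals are exact (Poisson, Clopper-Pearson, 95%) and reflect counting error alone. Limits for a count of 0 are set at 3 counts. For spread and joint detection each cell was thinned to 5000 UMIs. The scripts were tested on simulated data.

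The members, gene lists and markers were chosen with earlier results of these data known. Of the members, the 20 with a mean of at least 10 CPM over both libraries are given with values in every set, and the others by UMI counts or ranges except where singled out after their values were seen, such as Grb10, Igf2, Dlk1, Sgce and Nnat. A planned alignment of Mcts2 and Zrsr1 with their parent proteins was not made. In its place the stretches of 91 bases (the read length per the labels' protocols) that their GENCODE transcripts share with Mcts1 and Zrsr2 were counted, and there were 0. Alternatives were another pseudocount, TMM scaling, other cell filters, floors and marker thresholds, leaving out marked or shared barcodes, means over cells and totals without chromosomes 8, 11 and Y.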

Additional observations from a re-analysis of the deposited data

How the results depend on the processing

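Between the libraries, 4-fold calls moved with the cells taken, the floor and the fold. Members at least 4-fold lower numbered 8, but 3 in Klf4-positive cells of both libraries, where the other 5 were under the floor for a call, 3 at a floor of 50 CPM, 18 at 2-fold, and 4 when LB cells with any UMI of Fgf5, T, Mesp1, Hand1 or Gata3 were left out, a choice made after seeing the data that kept 883 LB cells. The count at least 4-fold higher went from 0 to 1 with a pseudocount of 0.1, with TMM scaling, in Klf4-positive cells, at 2-fold and without LB cells with those markers. The median of the 26 went from -1.40 to -1.25 with TMM, which moved the median of all genes from -0.17 to -0.02, to -0.90 in Klf4-positive cells and to -1.02 without LB cells with those markers. In the small sets counts of 2-fold calls depended on the set's definition. With the marker at 1 UMI or more, Fgf5-positive cells had 1 higher and 2 lower, T-positive cells 1 and 1, and Mesp1-positive cells 0 lower. With it at 3 or more, Mesp1-positive cells had 2 lower and Gata3-positive cells 1. After thinning before the sets were drawn, which left 4 Fgf5-positive, 197 T-positive, 82 Mesp1-positive and 4 Gata3-positive cells, 14 were lower in Fgf5-positive cells (45.9% of all genes), 1 higher in T-positive, 4 higher and 0 lower in Mesp1-positive and 3 lower in Gata3-positive cells. As means over cells, Fgf5-positive and T-positive cells had 1 higher each. In cells positive for 1 marker only, Fgf5-positive cells had 4 higher and 8 lower, T-positive 1 higher, Mesp1-positive 2 lower, and Gata3-positive (8 cells) 5 higher and 1 lower. Single ratios turned for Mirg in Fgf5-positive cells after thinning (-4.18) and for Ndn in Gata3-positive cells of 1 marker (-0.079). The Mirg ratio rests on 4 thinned cells, too few to decide a direction. The cause of either turn was not tested. Of 120 ratios of a gene in a set, 38 others, none past 2-fold, also changed sign under at least 1 alternative, 32 of them from within 0.5 of 0. The other 6 were Meg3 and Mest in Fgf5-positive, Cdkn1c in Mesp1-positive and Cdkn1c, Mirg and Igf2r in Gata3-positive cells. Counts in Klf4-positive and Hand1-positive cells stayed within 1.5 times under these definitions of the sets, but not under every floor. With 10 CPM needed on both sides, 7 were lower in Klf4-positive cells, against 13, and 11 higher in Hand1-positive cells, against 15. No paired analysis was possible because each condition has 1 library. No replicate could be left out for the same reason. Genes under 10 CPM are limited by depth.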

Other observations

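Some imprinted genes of different chromosomes were found together over all LB cells more often than their single shares give. The share of cells with both genes, divided by the product of the single shares, was 2.40 for H19 and Dlk1, 2.39 for H19 and Slc38a4, 2.42 for Dlk1 and Ndn and 2.13 for H19 and Peg10. These pairs were chosen after their values were seen, and their 5 genes are all among the 15 at least 2-fold higher in Hand1-positive cells. Within Hand1-positive cells the same pairs had 1.14, 1.20, 1.39 and 1.08, against a median of 1.01 over 334 pairs of different clusters. Over all LB cells, 12 pairs of 1 cluster, of genes in at least 5% of LB cells each, had a median of 1.19 and a highest value of 2.05, and 241 pairs of different clusters a median of 1.09. H19 and Igf2 had 2.27 but are not among the 12, since Igf2 was in 3.87% of LB cells.

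The parent genes of the retrogenes were read beside them. Zrsr2 had 83.2 CPM in LB and 191 in LBPXRS, a log2 ratio of 1.19, where Zrsr1 had -0.72 and the genes of its chromosome 11 a median of -0.63. Mcts1 had 41.7 and 33.6 CPM (-0.30), where Mcts2 had -0.03.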
